A study of Mus musculus with 16 samples.

Results

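The fatty acid desaturases and elongases described here are encoded by Scd1, Scd2, Scd3, Scd4, Fads1, Fads2, Elovl1, Elovl5, Elovl6 and Elovl7. They were taken by name and are 10 of the 23179 genes listed, and all 10 passed the filter on low values that left 21218 genes to test. The series holds 16 RNA-Seq libraries of normal mammary fat, with 4 libraries in each group, from female, wild-type C57BL/6N mice. CON-LFD mice were kept lean on a low-fat control diet (10% of energy as fat), whereas the other 3 groups were first made obese on a high-fat diet with 60% fat. DIO-HFD mice remained on that diet, DIO-LFD mice were changed to the low-fat diet, and DIO-VSG mice had vertical sleeve gastrectomy, an operation that leaves a narrow stomach, and then ate the low-fat diet. All mice without gastrectomy had a sham operation. Mice were 8 weeks old at purchase, ate their first diet for 15 weeks before surgery, received E0771 mammary cancer cells in fat pad 4 another 7 weeks later, at week 22, and were sampled about 4 weeks after that from fat pad 9 on the opposite side. Every group, the lean controls included, therefore carried a tumor, and the sampled tissue was whole fat pad, not the E0771 line that the labels also name.

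Stearoyl-CoA desaturases, encoded by the Scd genes, put a double bond into the middle of a saturated fatty acid, so that palmitate becomes palmitoleate and stearate becomes oleate. Elongases of the ELOVL family carry out the condensation step that lengthens a fatty acyl chain in the endoplasmic reticulum, and they differ in the chains they accept. ELOVL6 lengthens palmitate to stearate and so feeds the Scd step, while FADS2 and FADS1, with ELOVL5 between them, convert dietary linoleic and linolenic acids to arachidonic and eicosapentaenoic acids. In adipose tissue, Scd1 and Elovl6 belong to the lipogenic program that makes storage fat from carbohydrate.

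DIO-HFD mice had the lowest mean level of Elovl6, Scd1, Scd2, Scd3 and Scd4 among the 4 groups, and the spread between mice was wide. Their means of Fads2 (925, with 938 in DIO-VSG), Elovl5 and Elovl7 were also the lowest, and those of Fads1 and Elovl1 were not. Elovl6 averaged 1564 ± 744 normalized read counts in DIO-HFD (SD, n = 4), against 15490 ± 9554 in CON-LFD, 27835 ± 25052 in DIO-LFD and 30321 ± 19440 in DIO-VSG (all n = 4). Fads1, Elovl1, Elovl5 and Elovl7 had group means within a narrow band. None of the 10 genes passed an adjusted P of 0.05 in any of the 6 comparisons of groups (limma with Benjamini-Hochberg adjustment over all genes tested), and only 8 of 21218 genes, 0.0377%, did so for DIO-HFD against CON-LFD. For 3 of the 10, Scd1, Scd3 and Elovl6, the data had every DIO-HFD library below every CON-LFD library, beside 3% of all genes.

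**Figure D1:**
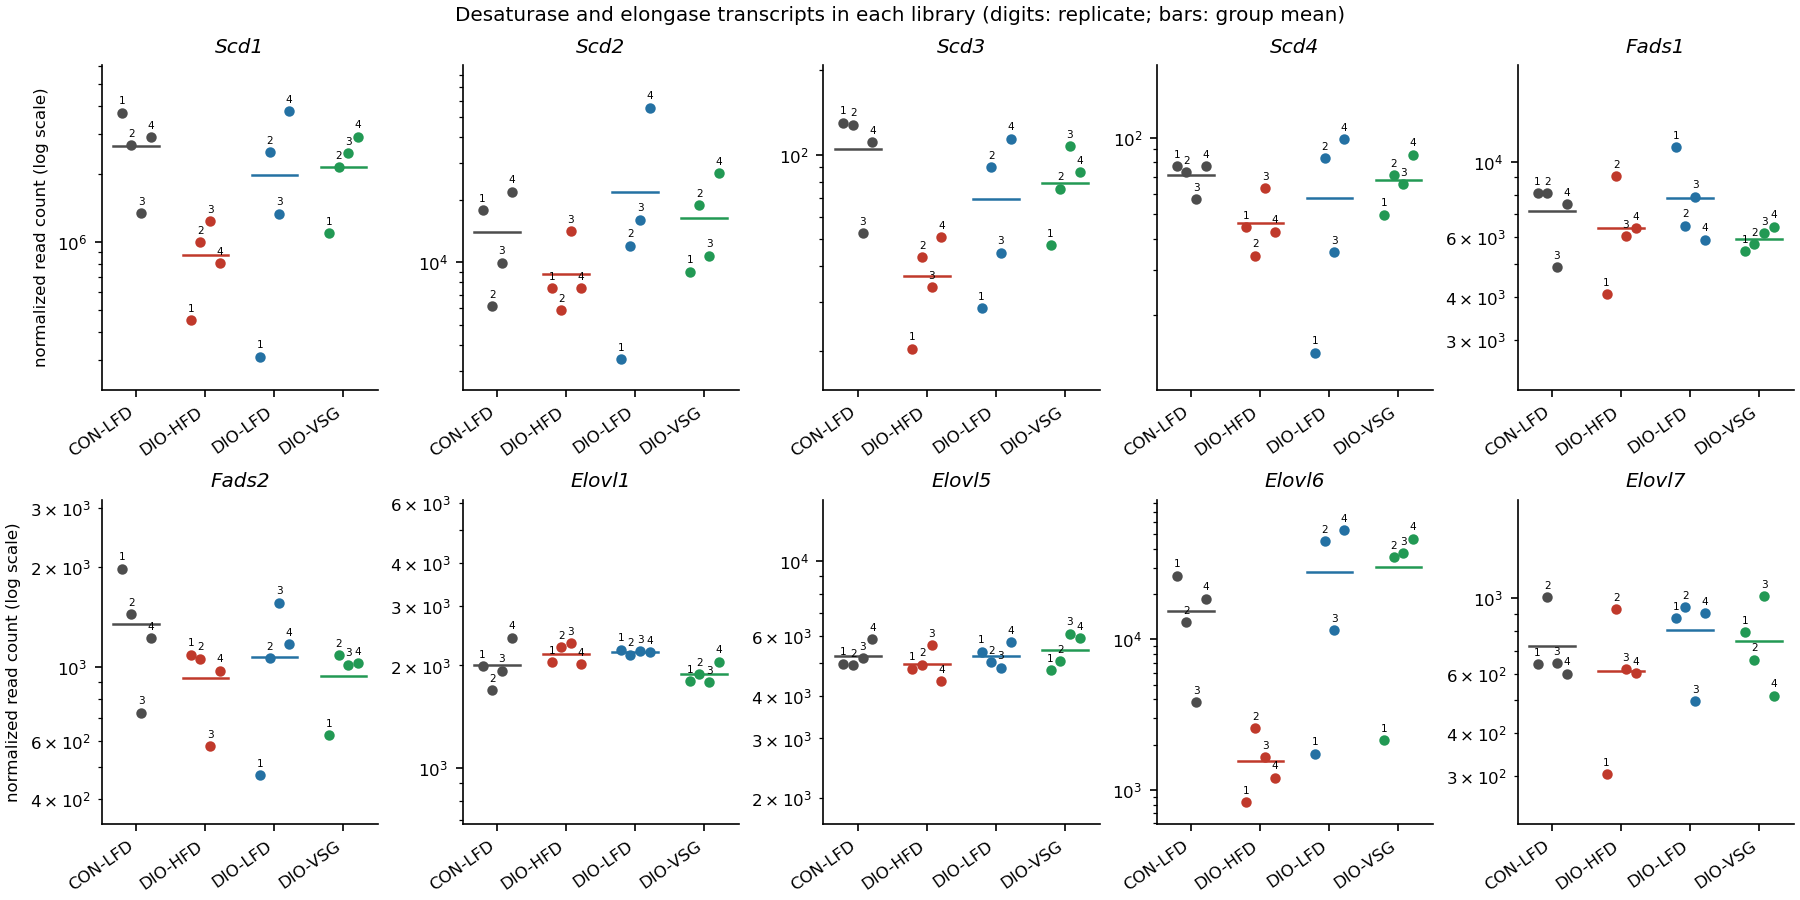
Normalized read count of each gene in each library on a log scale, with 4 libraries a group, the replicate number above each point and a bar at the group mean. Elovl6 and Scd1 lie lower in all 4 DIO-HFD libraries than in all 4 CON-LFD libraries, replicate 1 of DIO-LFD and replicate 1 of DIO-VSG have the lowest Elovl6 of their groups (1739 and 2147), and Elovl1 and Elovl5 stay within a narrow band.

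Of the genes, 6 lie on chromosome 19 (GRCm38, GENCODE M21). Scd3 (chr19:44203269-44244016), Scd2 (chr19:44293674-44306864) and Scd4 (chr19:44333092-44346743) are on the plus strand and Scd1 (chr19:44394455-44407879) on the minus strand of 1 cluster. Fads2 (chr19:10062765-10101746, minus strand) and Fads1 (chr19:10182888-10196877, plus strand) are neighbors elsewhere on that chromosome. Elovl6 lies at chr3:129532355-129638495, Elovl1 at chr4:118428093-118432953, Elovl5 at chr9:77917364-77984519 and Elovl7 at chr13:108214404-108285683, all on the plus strand, and all 10 are annotated as protein coding.

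The 250 bases before the RefSeq start (GRCm38.p6) were at hand for 7 of the 10 genes. RefSeq and GENCODE starts can differ. Most of the windows of Scd4 and Fads2, and all of that of the second of 2 starts of Elovl1, lie within the gene as GENCODE annotates it. So do the last bases of the windows of Elovl6 and Scd3 and the last base of that of Elovl5. Windows are printed for Elovl6 and Scd3, whose DIO-HFD and CON-LFD libraries did not overlap, for Scd4, another gene of the same cluster, and for Elovl5, whose level hardly differed between groups. Capitals mark the letters of 4 motifs searched on both strands, TCACNCCAC for the sterol regulatory element that SREBP factors bind, CCAAT for the NF-Y box, CACGTG for the E-box and GGGCGG for the Sp1 box.
Elovl6, chr3:129532136-129532385, plus strand: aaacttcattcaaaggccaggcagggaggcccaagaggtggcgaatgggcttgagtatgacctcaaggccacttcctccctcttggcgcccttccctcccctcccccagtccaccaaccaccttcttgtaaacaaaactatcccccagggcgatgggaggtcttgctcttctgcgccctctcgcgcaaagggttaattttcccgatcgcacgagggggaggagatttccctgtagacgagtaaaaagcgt
Scd3, chr19:44203038-44203287, plus strand: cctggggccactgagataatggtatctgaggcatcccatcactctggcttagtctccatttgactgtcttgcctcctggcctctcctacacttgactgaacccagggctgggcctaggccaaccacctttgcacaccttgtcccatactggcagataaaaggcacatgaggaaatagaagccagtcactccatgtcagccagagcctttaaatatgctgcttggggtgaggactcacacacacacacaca
Scd4, chr19:44333076-44333325, plus strand: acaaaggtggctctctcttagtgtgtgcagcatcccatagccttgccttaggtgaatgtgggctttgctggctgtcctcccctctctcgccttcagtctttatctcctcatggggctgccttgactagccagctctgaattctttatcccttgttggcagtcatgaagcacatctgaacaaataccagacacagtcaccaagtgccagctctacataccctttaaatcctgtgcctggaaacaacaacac
Elovl5, chr9:77917115-77917364, plus strand: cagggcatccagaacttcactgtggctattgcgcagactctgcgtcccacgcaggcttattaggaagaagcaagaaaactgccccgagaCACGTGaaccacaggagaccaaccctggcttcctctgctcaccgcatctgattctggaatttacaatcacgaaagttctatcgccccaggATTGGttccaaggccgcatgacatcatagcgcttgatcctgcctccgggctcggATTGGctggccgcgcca

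No motif letters occurred in the windows of Elovl6, Scd3 and Scd4, which says only that these letters are not in these windows. The Elovl5 window held an E-box 161 to 156 bases before the start and 2 NF-Y boxes, at 71 to 67 and 17 to 13 bases before it. Of all 32851 windows of this length, 1.05% held the sterol regulatory element, 33.8% the NF-Y box, 6.02% the E-box and 32.7% the Sp1 box. The window of Fads2 held 1 Sp1 box, 186 to 181 bases before the RefSeq start, which is within the gene as GENCODE annotates it. That of Elovl7 held 3. Of the 2 starts of Elovl1 the first had 5 Sp1 boxes and an NF-Y box that overlapped one of them. The second, within the annotated gene, had Sp1 boxes at 48 to 43 and 37 to 32 bases before it.

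Per kilobase of its longest coding transcript, Scd1 stood far above the others, at 396376 ± 229939 normalized counts per kilobase (SD over 16 libraries). It took between 0.5742% and 6.808% of all reads of a library. By mean level per kilobase the order then ran Elovl6 (3160 ± 3183), Scd2 (2789 ± 2294), Fads1 (1973 ± 497), Elovl5 (1880 ± 177), Elovl1 (1139 ± 114), Fads2 (339 ± 120), Elovl7 (180 ± 51.7), Scd3 (20.9 ± 10.6) and Scd4 (18.4 ± 6.85). Several neighbors in that order changed places between libraries. Elovl6 was above Scd2 in 6 of 16 libraries, Scd2 above Fads1 in 12, Fads1 above Elovl5 in 8 and Scd3 above Scd4 in 11, whereas Elovl5 exceeded Elovl1, and Elovl1 exceeded Fads2, in all 16.

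Members varied between mice to very different degrees. Elovl6 ranged 63.9-fold over the 16 libraries, and its standard deviation on the log2 scale, 2.16, was larger than that of 98.1% of all genes tested, whose median was 0.391. Elovl5 and Elovl1 ranged 1.38-fold and 1.43-fold, with a smaller standard deviation than most genes. The Scd genes lay between, from a 6.4-fold range for Scd3 to 16.3-fold for Scd2.

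Scd1 encodes the main stearoyl-CoA desaturase of adipose tissue and liver. Its normalized counts in CON-LFD replicates 1 to 4 were 3717867, 2682571, 1342740 and 2901225, and in DIO-HFD they were 451143, 999504, 1234063 and 807542. Every DIO-HFD library was below every CON-LFD library. In DIO-LFD the counts were 311099, 2486893, 1333016 and 3768151, so that this group held both the lowest and the highest Scd1 of the series, and in DIO-VSG they were 1089040, 2143710, 2459838 and 2916184. On the log2(normalized count + 1) scale, DIO-HFD differed from CON-LFD by -1.61 ± 0.68 (SE), with an unadjusted P of 0.0321 and an adjusted P of 0.341 in limma. DIO-VSG differed from DIO-HFD by 1.31 ± 0.68 (adjusted P = 0.394, limma) and DIO-LFD from DIO-HFD by 0.78 ± 0.68 (adjusted P = 0.859, limma), and in both comparisons the groups overlapped. Because Scd1 had the highest count in nearly every library, quantile normalization, which gives the top gene of every library the same value, set its difference to 0 for DIO-HFD against CON-LFD.

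Scd2 encodes another isoform of the desaturase, known for its expression in brain and in adipose tissue. Its counts were 17829, 6166, 9968 and 21859 in CON-LFD, 7538, 5870, 14148 and 7500 in DIO-HFD, 3414, 12027, 16036 and 55524 in DIO-LFD, and 9022, 18908, 10788 and 26810 in DIO-VSG. All 4 groups overlapped, and DIO-LFD again held the lowest and the highest library. The difference of DIO-HFD from CON-LFD was -0.59 ± 0.67 on the log2 scale, that of DIO-VSG from DIO-HFD 0.85 ± 0.67 and that of DIO-LFD from DIO-HFD 0.74 ± 0.67, with adjusted P between 0.523 and 0.873 in limma.

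Scd3 and Scd4 encode further isoforms, best known from skin glands and from heart. Scd3 counts were 130, 128, 52.6 and 111 in CON-LFD and 20.4, 43.2, 33.8 and 50.8 in DIO-HFD, so that these groups did not overlap. They were 28.4, 90.3, 44.8 and 114 in DIO-LFD and 47.7, 75.6, 107 and 86.7 in DIO-VSG. The log2 difference of Scd3 was -1.47 ± 0.45 for DIO-HFD against CON-LFD (unadjusted P = 0.00518, adjusted P = 0.237, limma) and 1.09 ± 0.45 for DIO-VSG against DIO-HFD (unadjusted P = 0.028, adjusted P = 0.334, limma). Scd4 lay between 14.2 and 99.1 normalized counts, both in DIO-LFD libraries, and the log2 difference from DIO-HFD was 0.56 ± 0.46 for DIO-VSG and 0.01 ± 0.46 for DIO-LFD. Both genes are low beside Scd1, with 27.4 to 91.2 Scd3 reads and 20.8 to 98.5 Scd4 reads per 1000000 Scd1 reads. Transcripts of Scd3 and Scd1 share 110 of the stretches of 76 bases, the length of 1 read, or 3.17% of those of Scd3 and 2.25% of those of Scd1. Scd4 and Scd1 share 41, or 1.11% of those of Scd4 and 0.839% of those of Scd1. A library held 284934 to 3688590 reads of Scd1, against 22 to 121 of Scd3 and 13 to 97 of Scd4. Scd3 followed Scd1 across the 16 libraries with a Pearson r of 0.926. The part of reads divided between the copies in this, and in the differences of Scd3 and Scd4, was not tested.

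Elovl6 showed the largest differences of the 10 genes in the 3 comparisons with DIO-HFD. Its counts were 26536, 12962, 3842 and 18618 in CON-LFD and 832, 2559, 1656 and 1209 in DIO-HFD. No DIO-HFD library reached the lowest CON-LFD library. In DIO-LFD they were 1739, 44984, 11477 and 53138, and in DIO-VSG 2147, 35080, 37383 and 46675. Replicate 1 of each weight-loss group thus lay inside the DIO-HFD range, and the other 3 libraries of each lay above all DIO-HFD libraries. The log2 difference was -3.12 ± 1.11 for DIO-HFD against CON-LFD (95% confidence interval -5.50 to -0.75, unadjusted P = 0.0136, adjusted P = 0.267, limma). DIO-VSG exceeded DIO-HFD by 3.73 ± 1.11 (unadjusted P = 0.00458, adjusted P = 0.271, limma), and DIO-LFD exceeded it by 3.36 ± 1.11 (unadjusted P = 0.00884, adjusted P = 0.463, limma). Without replicate 1 of DIO-LFD the last difference was 4.39, with an adjusted P of 0.169 in limma, and without replicate 1 of DIO-VSG the difference of DIO-VSG from DIO-HFD was 4.78, with an adjusted P of 0.344. DIO-VSG and DIO-LFD differed from each other by 0.37 ± 1.11, an interval of -2.01 to 2.74 that holds large differences of either sign.

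Elovl5, Elovl1 and Elovl7 encode elongases of polyunsaturated, very long saturated and longer saturated chains. Elovl5 lay between 4417 and 6106 normalized counts, and its log2 differences from CON-LFD or DIO-HFD in the 3 comparisons with DIO-HFD were between -0.08 and 0.14. Elovl1 had its smallest spread in DIO-LFD, with counts of 2228, 2153, 2208 and 2188, all above the 1800, 1889, 1786 and 2054 of DIO-VSG. That difference was -0.22 ± 0.10 on the log2 scale (unadjusted P = 0.0358, adjusted P = 0.509, limma). The macrophage marker list summed to between 15718 and 30725 in DIO-LFD and to between 9692 and 25402 in DIO-VSG, and over 16 libraries Elovl1 followed the score of that list with r = 0.847; the part of macrophages in the difference was not tested. Elovl7 lay between 303 and 1015, with overlapping groups throughout.

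Fads1 and Fads2 encode the desaturases of polyunsaturated chains. Fads1 counts were 8094, 8095, 4896 and 7489 in CON-LFD, 4083, 9065, 6027 and 6379 in DIO-HFD, 11047, 6480, 7888 and 5893 in DIO-LFD, and 5468, 5711, 6152 and 6435 in DIO-VSG. The highest and the lowest library belonged to DIO-LFD and DIO-HFD, and the groups overlapped. Fads2 counts were 1975, 1441, 729 and 1219 in CON-LFD, 1087, 1059, 578 and 975 in DIO-HFD, 472, 1064, 1561 and 1171 in DIO-LFD, and 624, 1082, 1016 and 1028 in DIO-VSG. Against CON-LFD, DIO-HFD differed by -0.19 ± 0.24 for Fads1 and -0.49 ± 0.36 for Fads2 on the log2 scale. Fads1 followed the adipocyte marker score over the 16 libraries with r = 0.818.

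Setting DIO-HFD against CON-LFD compares persistently obese with lean mice. These mice also ate different diets when sampled, and both weight-loss groups changed to the low-fat diet. The paper reports heavier tumors in DIO-HFD than in the other groups. Body weight, current diet and tumor mass therefore cannot be told apart in the 3 comparisons with DIO-HFD. DIO-VSG differed from DIO-HFD also by gastrectomy in place of the sham operation. Between DIO-HFD and CON-LFD 9 of the 10 genes had a fitted log2 difference below 0 (Fads1 was above 0 without DIO-HFD replicate 1 and with the adipocyte covariate) and Elovl1 one of 0.12, with a median of -0.54 beside 0.02 over all genes tested. Of these, 3 (Scd1, Scd3 and Elovl6) were lower at an unadjusted P under 0.05, where 7.66% of all genes were, and the same 3 had groups that did not overlap, where 3% of all genes lay lower in this way. Scd1 lost its unadjusted call when CON-LFD replicate 1, 2 or 4 or DIO-HFD replicate 1 or 4 was left out, with a pseudocount of 10, with the deposited values and under quantile normalization, while Scd3 and Elovl6 had theirs in each of these fits. For DIO-VSG against DIO-HFD, the surgical route, 8 of 10 were above 0, with a median of 0.45. Fads2 was below 0 without DIO-HFD replicate 3, without DIO-VSG replicate 2, 3 or 4, with library weights and with the adipocyte covariate, and Fads1 was above 0 without DIO-HFD replicate 2 and with that covariate. Of these, 2 (Scd3 and Elovl6) were higher at an unadjusted P under 0.05 beside 5.05% of all genes, no gene of the 10 had groups without overlap beside 2.37%, and 0% of all genes passed the adjusted threshold. Scd3 lost its unadjusted call without DIO-HFD replicate 1 and without DIO-VSG replicate 3 or 4, and under quantile normalization. For DIO-LFD against DIO-HFD, the dietary route, all 10 were above 0, with a median of 0.38. Some of these signs were not stable, with Scd4 (0.01) below 0 without replicate 2 or 4 of DIO-HFD or of DIO-LFD, Elovl1 (0.02) below 0 without DIO-HFD replicate 1 or 4 and with the adipocyte covariate, Fads2 below 0 without replicate 3 of either group, and Scd1 and Scd4 below 0 under quantile normalization. Here Elovl6 alone was higher at an unadjusted P under 0.05 beside 5.37% of all genes, none of the 10 was free of overlap beside 3.01%, and again 0% passed after adjustment. Without DIO-LFD replicate 1, 4 of the 10 were higher at an unadjusted P under 0.05, Scd1, Scd2 (1.41), Scd3 (1.12) and Elovl6 (4.39), beside 9.21% of all genes in either direction. With another library left out, these differences fell as low as 0.303 for Scd1, 0.072 for Scd2, 0.461 for Scd3 and 2.747 for Elovl6. Both weight-loss comparisons share the 4 DIO-HFD libraries, so their directions are not independent.

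**Figure D2:**
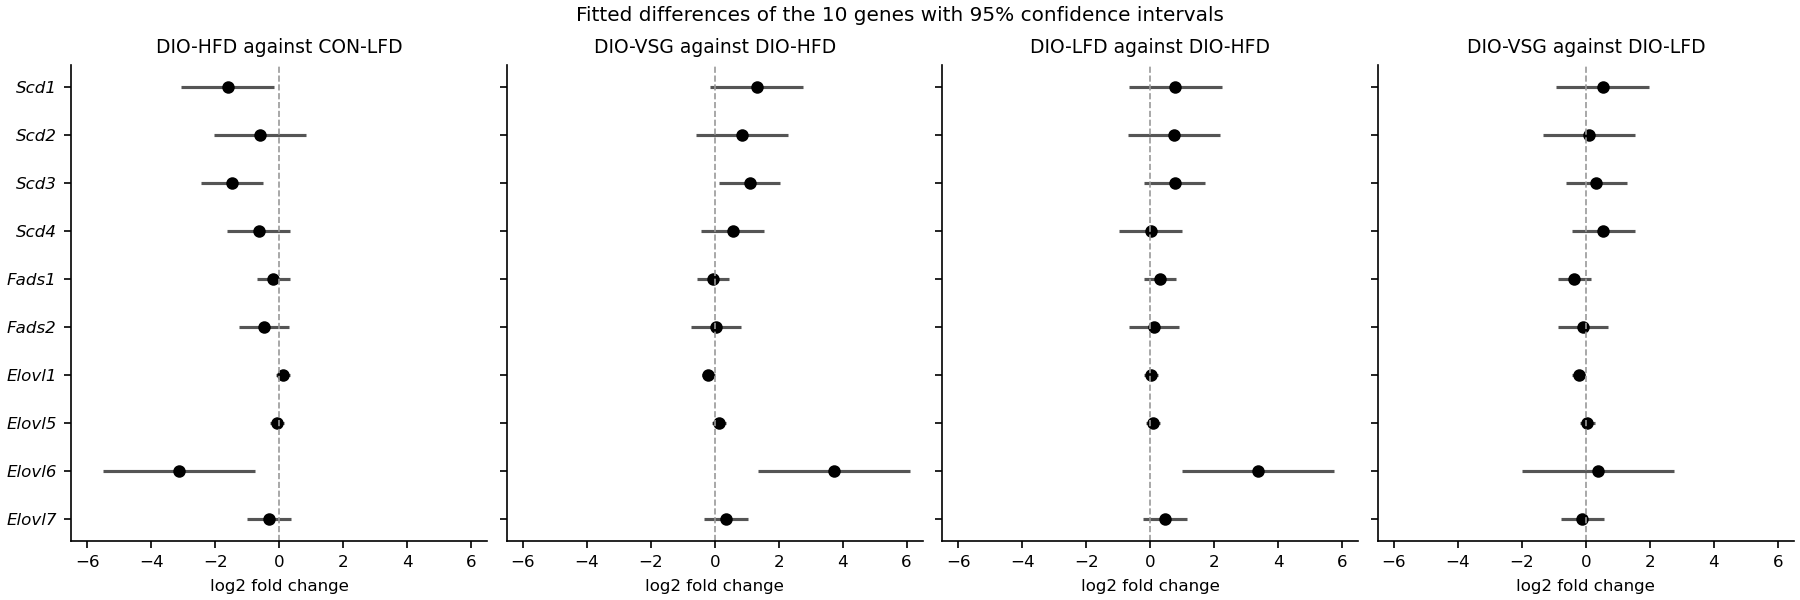
Fitted log2 fold change of each gene (points) with its 95% confidence interval (lines) in 4 comparisons, on the log2(normalized count + 1) scale. Elovl6 has the widest intervals and, in the 3 comparisons with DIO-HFD, the largest differences, and in DIO-VSG against DIO-LFD most intervals include 0, that of Elovl1 (-0.43 to -0.02) being the exception.

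DIO-VSG and DIO-LFD were compared directly to set surgical beside dietary weight loss. The median of the 10 log2 differences was 0.08, and they ran from -0.36 for Fads1 to 0.55 for Scd4. Elovl1 was the only gene of the 10 that was lower at an unadjusted P under 0.05, beside 5.41% of all genes, and the only one without overlap, beside 5.83%, and 0% of all genes passed the adjusted threshold in limma. Its unadjusted call was lost when any 1 of the 4 DIO-LFD libraries, or replicate 1, 2 or 3 of DIO-VSG, was left out, and with the adipocyte marker score as a covariate. Scd1 differed by 0.53 ± 0.68 and Scd2 by 0.11 ± 0.67. Without replicate 1 of DIO-LFD the Scd1 difference was -0.20, the Scd2 difference -0.57 and the Elovl6 difference -0.66, each of the opposite sign.

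Neither weight-loss group could be told apart from CON-LFD in these genes. Elovl6 differed from CON-LFD by 0.60 ± 1.11 in DIO-VSG and by 0.24 ± 1.11 in DIO-LFD on the log2 scale, and Scd1 by -0.30 ± 0.68 and -0.83 ± 0.68. No gene of the 10 had an unadjusted P under 0.05 in either comparison, and after adjustment 0% of all genes passed for DIO-VSG and 0.00471% for DIO-LFD. Unadjusted P values under 0.05 were found for 3771 and 1328 of all genes in these comparisons. Without DIO-LFD replicate 4, Scd3 and Scd4 reached an unadjusted P under 0.05 for DIO-LFD against CON-LFD, as did Scd3 without CON-LFD replicate 3 and Elovl1 without CON-LFD replicate 4.

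Ratios of a pair of enzymes within a library do not depend on the scaling between libraries. The log2 ratio of Elovl6 to Elovl5 was 2.413, 1.395, -0.426 and 1.661 in CON-LFD and -2.532, -0.951, -1.768 and -1.869 in DIO-HFD, without overlap. It was -1.634, 3.160, 1.244 and 3.206 in DIO-LFD, and -1.149, 2.793, 2.614 and 2.978 in DIO-VSG. DIO-HFD differed from CON-LFD by -3.04 (exact two-sided permutation P = 0.0286, the smallest that 4 against 4 allow, and 0.343 after adjustment over 18 tests). DIO-VSG and DIO-LFD exceeded DIO-HFD by 3.59 and 3.27 (exact permutation P = 0.0571 for each, adjusted P = 0.343). The log2 ratio of Scd1 to Scd2 averaged 7.65 ± 0.80 in CON-LFD, 6.63 ± 0.63 in DIO-HFD, 6.67 ± 0.71 in DIO-LFD and 7.09 ± 0.50 in DIO-VSG (SD, n = 4). That of Fads2 to Fads1 averaged -2.47 ± 0.31, -2.77 ± 0.64, -2.96 ± 1.07 and -2.69 ± 0.31 in the same order of groups. For these 2 ratios, the groups overlapped in all 6 comparisons, and adjusted P lay between 0.411 and 0.943 in exact permutation tests.

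**Figure D3:**
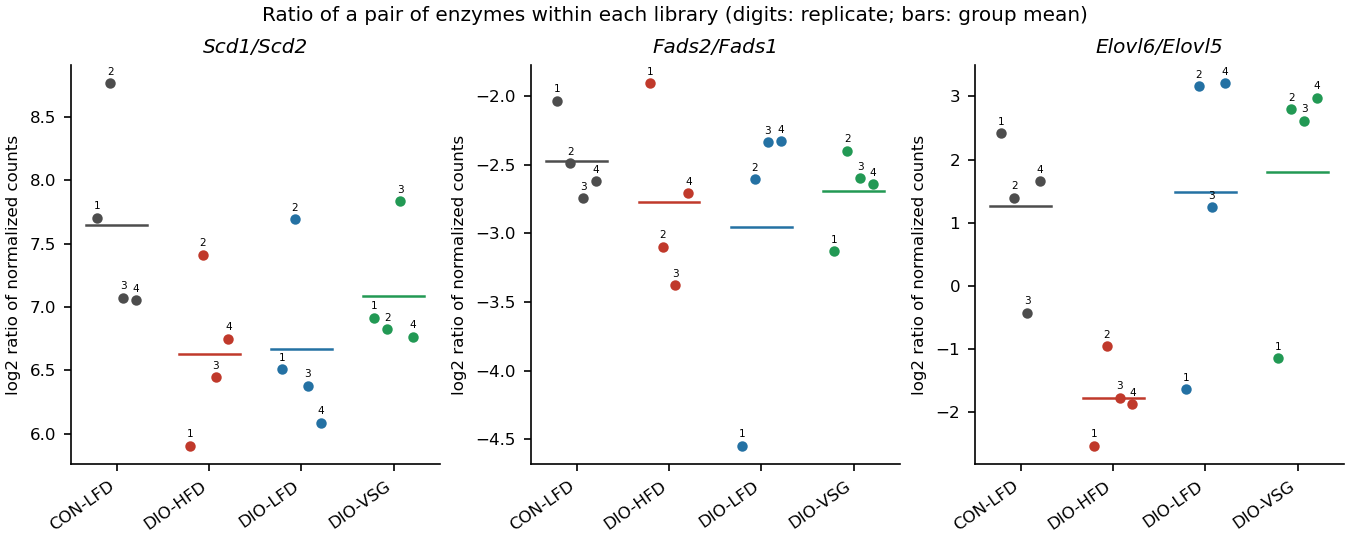
Log2 ratio of the normalized counts of a pair of enzymes within each library, with the replicate number above each point and a bar at the mean of 4 libraries. For Elovl6/Elovl5 all DIO-HFD libraries, from -2.532 to -0.951, lie below all CON-LFD libraries, while replicate 1 of DIO-LFD (-1.634) and of DIO-VSG (-1.149) lie among DIO-HFD.

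Across the 16 libraries on the log2 scale, Elovl6 was most like Tkt (Pearson r = 0.987), which encodes transketolase of the pentose phosphate pathway, Slc2a5 (0.983), a fructose transporter, Acss2 (0.981), which makes acetyl-CoA from acetate, Fasn (0.977), fatty acid synthase, and Slc25a1 (0.973), the mitochondrial citrate carrier. With each gene centered within its groups, these r were 0.953 to 0.983, and without the 2 libraries farthest from the median they were 0.968 to 0.982. Scd1 was most like P2rx6 (0.951), Lctl, Myl6b, Orm1 and Orm3, and Scd3 also like P2rx6 (0.955). Elovl7 was most like Sptlc3 (0.933), Wfdc2, Cldn4, Wnt4 and Vill, and Elovl5, which hardly varied, had no gene above an r of 0.814 (Bud31). Among the 10 genes themselves, Elovl6 followed Scd1 with r = 0.875 and Scd3 with r = 0.853, whereas Fads1 followed Scd1 with r = -0.031. These r share the same libraries and are given as a description.

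**Figure D4:**
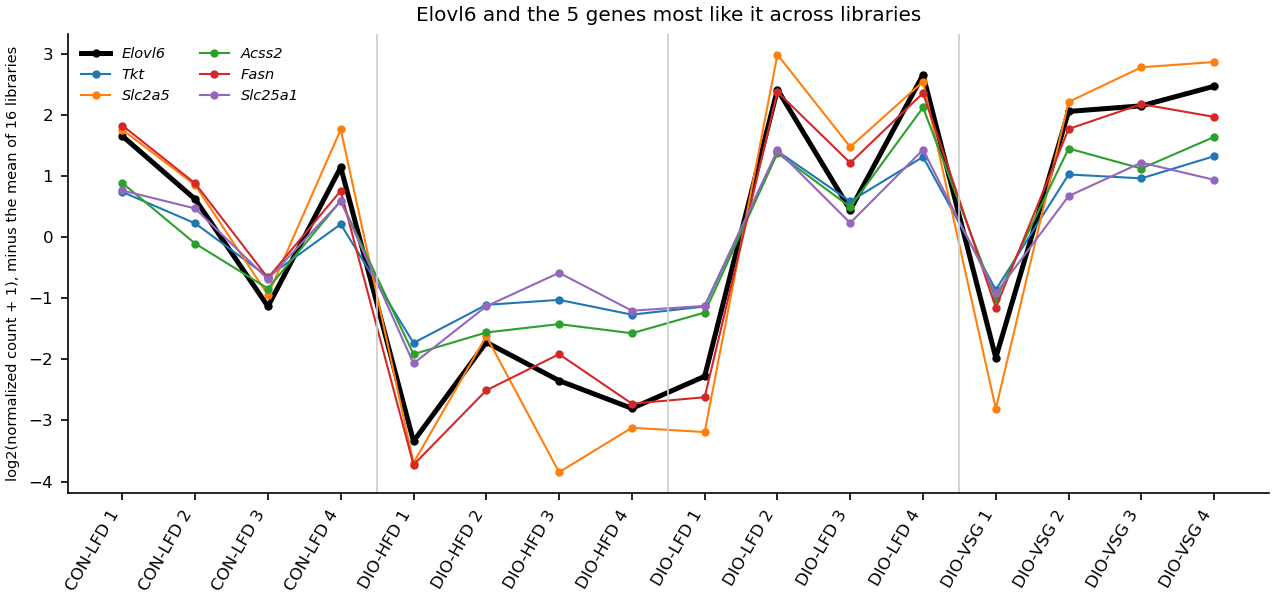
Log2(normalized count + 1) of Elovl6 (black) and of the 5 genes with the highest Pearson r with it, each minus its mean over the 16 libraries. All 6 genes are low in the 4 DIO-HFD libraries, in replicate 1 of DIO-LFD and in replicate 1 of DIO-VSG, and r with Elovl6 is between 0.973 and 0.987.

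Pathway genes from lists other than the 10 were then examined, and none passed the adjusted threshold in the 3 comparisons with DIO-HFD. Fatty acid synthesis supplies the palmitate that ELOVL6 lengthens. All 7 genes on the list for that pathway had lower fitted values in DIO-HFD than in CON-LFD (median -1.75 on the log2 scale, 6 at an unadjusted P under 0.05) and higher ones in DIO-VSG and DIO-LFD than in DIO-HFD (medians 2.05 and 2.31, all 7 at an unadjusted P under 0.05). Of all genes, 7.66% were lower in the first comparison at such a P, and 5.05% and 5.37% were higher in the others. Fasn differed by -3.42, 3.91 and 3.55 in the comparisons DIO-HFD against CON-LFD, DIO-VSG against DIO-HFD and DIO-LFD against DIO-HFD, and Acaca, acetyl-CoA carboxylase, by -2.46, 3.11 and 3.20. In DIO-HFD, Acaca had 4712 to 11640 normalized counts, below the 23297 to 74055 of CON-LFD, the 33002 to 128797 of DIO-LFD and the 19535 to 128629 of DIO-VSG. Acss2 was likewise free of overlap with DIO-HFD in all 3 groups, but the other 5 genes were not. Replicate 1 of DIO-LFD lay inside the DIO-HFD range for Fasn (21753, with 10120 to 35461 in DIO-HFD), Me1 and Slc25a1, and replicate 1 of DIO-VSG did so for Acly (9261, with 8445 to 10376 in DIO-HFD), Acacb, Me1 and Slc25a1. Replicate 3 of CON-LFD lay inside it for Acly, Me1 and Slc25a1.

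**Figure D5:**
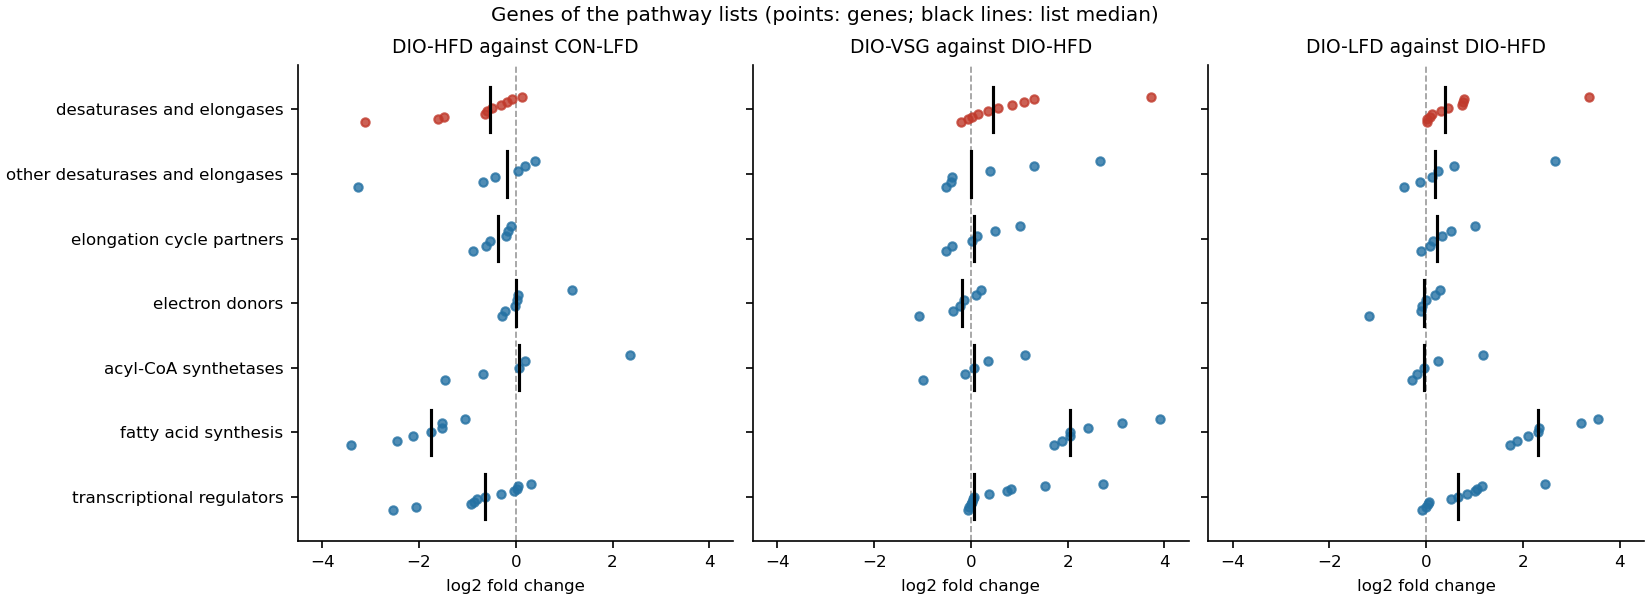
Fitted log2 fold change of each gene (points) of the 10 desaturases and elongases (red) and of 6 pathway lists (blue) in the 3 comparisons with DIO-HFD, with a black line at the median of each list. The 7 fatty acid synthesis genes lie below 0 in DIO-HFD against CON-LFD (median -1.75) and above 0 in both weight-loss comparisons.

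Elongation needs 3 further enzymes after the ELOVL step. Among 6 genes for them, Hsd17b12, the ketoacyl-CoA reductase, differed most in all 3 comparisons, by -0.88 ± 0.28 in DIO-HFD against CON-LFD, 1.01 ± 0.28 in DIO-VSG against DIO-HFD and 1.02 ± 0.28 in DIO-LFD against DIO-HFD (adjusted P = 0.247, 0.246 and 0.399, limma). It was the only one of the 6 at an unadjusted P under 0.05 in each, beside 7.66% of all genes lower in the first comparison and 5.05% and 5.37% higher in the others. Hacd2, a dehydratase, had the next largest difference from CON-LFD (-0.61), Hacd4 the next in DIO-VSG (-0.52) and Tecr, the last enzyme of the cycle, the next in DIO-LFD (0.52).

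Electrons reach the desaturases through cytochrome b5 and its reductases. Among 6 genes for forms of cytochrome b5 and its reductases, not all of which need serve the desaturases, Cyb5r2 alone had an unadjusted P under 0.05. It was higher in DIO-HFD than in CON-LFD (1.17) and lower in DIO-VSG (-1.08) and DIO-LFD (-1.18) than in DIO-HFD, the reverse of Scd1. Of all genes, 5.23%, 8.12% and 3.16% were called in these directions. The next largest differences were -0.28 for Cyb5b, -0.38 for Cyb5r3 and 0.29 for Cyb5b in the same order of comparisons. Among 5 acyl-CoA synthetases, which activate fatty acids before they are lengthened or desaturated, Acsl1 differed by -1.47, 1.11 and 1.17, each at an unadjusted P under 0.05 (beside 7.66% of all genes lower, 5.05% higher and 5.37% higher). Acsl3 differed from CON-LFD by -0.67 and was the only other synthetase at such a P, while Acsl6, by 2.36, -0.98 and -0.28, did not reach it in any of the 3.

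Of 7 other desaturases and elongases, 6 could be tested. Elovl3, an elongase known from brown fat and skin, had the largest differences (-3.26, 2.67 and 2.67, with SE 1.61), with 15.7 to 2104 normalized counts in CON-LFD and 2.78 to 39.8 in DIO-HFD. Elovl4 (-0.67) followed in DIO-HFD against CON-LFD, Degs2 (1.31) in DIO-VSG and Fads6 (0.58) in DIO-LFD, the last with an unadjusted P of 0.0178. Among 11 transcriptional regulators, Thrsp, which encodes Spot 14, a protein tied to lipogenesis, and Ppara differed most, with Thrsp at -2.53, 2.73 and 2.47 and Ppara at -2.05, 1.54 and 1.16. Of the 11, 8 had lower fitted values in DIO-HFD than in CON-LFD, 4 of them at an unadjusted P under 0.05 (beside 7.66% of all genes). Against DIO-HFD, 9 of the 11 had higher fitted values after surgery, 3 of them at an unadjusted P under 0.05 (beside 5.05%), and 10 after the diet, 4 of them at such a P (beside 5.37%).

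Markers of other cell types differed between the fat pads, and in whole tissue fewer cells of a type cannot be told apart from less RNA per cell. Marker lists of fat were abundant in every library (10 adipocyte genes summing to 567379 to 2051720 normalized counts). Of these 10, 8 had lower fitted values in DIO-HFD than in CON-LFD (median -0.44). Against DIO-HFD, 9 were higher in DIO-LFD (median 0.40, 2 at an unadjusted P under 0.05 beside 5.37% of all genes). In DIO-VSG, 6 were higher than in DIO-HFD and 4 lower (median 0.02, 1 lower at such a P beside 8.12%), and all 10 were lower than in DIO-LFD (median -0.42). Brown adipocyte markers had lower fitted values in DIO-HFD than in CON-LFD for 6 of 6 genes (median -2.69 on the log2 scale, 5 at an unadjusted P under 0.05 beside 7.66% of all genes), and higher ones for 6 of 6 in both DIO-VSG and DIO-LFD than in DIO-HFD (medians 1.90 and 1.92, 2 at such a P in each, beside 5.05% and 5.37%). They summed to 420 to 1325 in DIO-HFD, 2464 to 50033 in CON-LFD, 3146 to 8956 in DIO-LFD and 1069 to 36436 in DIO-VSG, and their score followed Scd3 with r = 0.764, Elovl6 with r = 0.656 and Scd1 with r = 0.624. Mammary epithelium markers, 8 of 8 with lower fitted values in DIO-HFD than in CON-LFD, summed to 31714 to 70847 in DIO-HFD and 55334 to 98570 in CON-LFD, and 6 of 8 had higher fitted values in DIO-LFD than in DIO-HFD (median 0.65 on the log2 scale, 5 at an unadjusted P under 0.05 beside 5.37% of all genes) and also 6 of 8 in DIO-VSG (median 0.34). Their score followed Scd3 with r = 0.736, Elovl7 with r = 0.613, Scd1 with r = 0.586, Fads2 with r = 0.58 and Elovl6 with r = 0.568. Skeletal muscle markers, 5 of 5 with lower fitted values in DIO-HFD than in CON-LFD (median -2.34 on the log2 scale), 4 of 5 with higher ones in DIO-VSG than in DIO-HFD and 5 of 5 in DIO-LFD, summed to 710 to 2942 in DIO-HFD, 2007 to 25294 in CON-LFD, 1303 to 112175 in DIO-LFD and 355 to 18910 in DIO-VSG. The highest sum was in DIO-LFD replicate 4, which had the highest Scd2 and Elovl6, and the score of these markers followed Scd2 with r = 0.704, Elovl6 with r = 0.592, Scd1 with r = 0.581 and Scd3 with r = 0.56. Sums of 5 B cell markers ran from 192 to 49005 within CON-LFD and from 855 to 66547 within DIO-HFD but from 45232 to 52717 in DIO-VSG, and their score had an r of -0.479 with Fads1 and of 0.063 with Elovl6. T cell markers, 5 of 5 with higher fitted values in DIO-VSG than in DIO-HFD (median 2.38), summed to 338 to 23614 in DIO-HFD and 14380 to 20827 in DIO-VSG, with an r of -0.52 with Fads1. Macrophage markers, 6 of 6 with lower fitted values in DIO-VSG than in DIO-HFD (median -0.72), summed to 23545 to 27536 in DIO-HFD. Endothelium markers, 4 of 4 with lower fitted values in DIO-VSG than in DIO-HFD (3 at an unadjusted P under 0.05 beside 8.12% of all genes), summed to 38974 to 61269 in DIO-HFD and 32925 to 34407 in DIO-VSG, and their score had an r of -0.558 with Scd4, 0.513 with Fads1, -0.496 with Scd1 and -0.465 with Elovl6. Sebaceous markers (4 of 6 listed) summed to 1462 to 4178, and keratinocyte markers stood out in DIO-HFD replicate 4 alone (10274, with 102 to 968 elsewhere). The part of these cells in the differences of the 10 genes was not tested, except that with the adipocyte marker score as a covariate the Elovl6 difference between DIO-HFD and CON-LFD was -3.15.

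When limma weighted the libraries by their estimated quality, 3 genes (Scd1, Scd3 and Elovl6) passed the adjusted threshold for DIO-HFD against CON-LFD, 3 (Scd1, Elovl5 and Elovl6) for DIO-VSG against DIO-HFD and 1 (Elovl6) for DIO-LFD against DIO-HFD. In the same fits 19.8%, 17.6% and 8.54% of all genes passed, in either direction. With these weights replicate 4 of DIO-HFD had a weight of 10.9 and the other 3 DIO-HFD libraries had weights of 0.222 to 0.484, so 1 library stood for most of the group.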

How the data were processed

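RNA of 16 mouse mammary fat pads was sequenced as paired reads of 76 bases. The methods name STAR, salmon and a Gencode annotation summed to genes, with genes under 10 counts removed, whereas the submitters' processing notes list TopHat2 2.0.7, HTSeq 0.5.3p9 and DESeq2. Values deposited by the authors are variance-stabilized log2 values (5.36 to 21.85), although the file calls them normalized counts. The planned test used the log2 of normalized counts, so the transformation was inverted, which gave whole reads for 100.0% of values within 0.01. Totals were 46907377 to 57610899 reads a library, so counting error is small for all but the low genes, and 0 columns were without a sample. Groups and replicate numbers came from the labels; the 16 libraries have separate animal numbers.

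The filter kept genes that reached 10 normalized counts in 4 or more libraries. A pseudocount of 1 was added before taking log2, and all 4 groups entered 1 fit in limma 3.58.1 under R 4.3.3, two-sided, with Benjamini-Hochberg adjustment and a threshold of 0.05. Fold changes on this scale understate those of low genes. The method was tested on simulated data with large known changes, which does not measure its power or error at the spread between these mice. Ratios within libraries had exact two-sided permutation tests (scipy 1.17.1). Gene positions and lengths were from GENCODE M21, promoter windows from RefSeq (GRCm38.p6). The 10 genes, the pathway and marker lists and the tests were chosen with earlier results of these data known. From each pathway list the 2 genes with the largest difference in each comparison with DIO-HFD were named, and for likeness up to 5 genes with the highest Pearson r. Alternatives were other pseudocounts, no filter, the deposited values, quantile normalization, library weights, voom on whole reads, 2 groups alone, a replicate block, an adipocyte covariate and each library left out.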

Additional observations from a re-analysis of the deposited data

Results flagged for a closer look

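Of 40 sets of 4 libraries, 1 for each of the 10 genes in each group, 3 held a library far from the others by Dixon's test, where chance gives about 5% of sets. Fads2 had 624 normalized counts in DIO-VSG replicate 1, with 1016 to 1082 in the other 3, a gap of 0.856 of the range. Elovl7 had 1006 in CON-LFD replicate 2, with 600 to 644 in the others, a gap of 0.892 of the range. In DIO-LFD replicate 3 Elovl7 had 498, with 875 to 943 in the others, a gap of 0.846 of the range. DIO-VSG replicate 1 was also the lowest of its group in Elovl6 (2147) and Scd1 (1089040).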

How the results depend on the processing

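Of 988 refits of single log2 differences, 945 kept their direction and their side of the threshold, 33 changed sign, 3 were set to 0 and 7, all with library weights, passed the threshold. Of the 10 genes, 0 passed after adjustment in any comparison with a library left out, with the replicate block (same replicate numbers correlated from -0.609 to 0.534, so the numbers did not pair mice) and with every other setting except library weights, which gave 3, 3 and 1 genes for DIO-HFD against CON-LFD, DIO-VSG against DIO-HFD and DIO-LFD against DIO-HFD. Over all genes, the 8 called for DIO-HFD against CON-LFD became 0 to 4196 (1 with the block, 0 with voom, 128 without CON-LFD replicate 3). The 0 of DIO-VSG against DIO-HFD, DIO-LFD against DIO-HFD, DIO-VSG against CON-LFD and DIO-VSG against DIO-LFD reached up to 3739, 1811, 4226 and 1533, and the 1 of DIO-LFD against CON-LFD ran from 0 to 53. Without CON-LFD replicate 3, 873 genes were called for DIO-VSG against CON-LFD. The lowest genes, Scd3 (from 22 reads) and Scd4 (from 13 reads), are limited by depth.

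Changes of sign, or to 0, were as follows on the log2 scale. With quantile normalization Scd1 differed by 0 for DIO-HFD against CON-LFD, DIO-VSG against DIO-HFD and DIO-VSG against CON-LFD, where it had the highest count in nearly every library, and for DIO-LFD against DIO-HFD Scd1 was at -0.589 and Scd4 at -0.042. With the adipocyte covariate Fads1 was at 0.01 (DIO-HFD against CON-LFD) and 0.065 (DIO-VSG against DIO-HFD), Fads2 at -0.053 (DIO-VSG against DIO-HFD), Elovl1 at -0.016 (DIO-LFD against DIO-HFD) and Scd2 at -0.062 (DIO-VSG against DIO-LFD). With library weights Fads2 was at -0.091 (DIO-VSG against DIO-HFD), and Scd2 at -0.348 and Elovl6 at -0.048 (DIO-VSG against DIO-LFD). The causes were not tested.

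With each library left out in turn, Fads1 ran from -0.376 to 0.007 for DIO-HFD against CON-LFD. For DIO-VSG against DIO-HFD, Fads1 ran from -0.247 to 0.136 and Fads2 from -0.181 to 0.214. For DIO-LFD against DIO-HFD, Scd4 ran from -0.357 to 0.549, Fads2 from -0.1 to 0.475 and Elovl1 from -0.01 to 0.056. For DIO-VSG against DIO-LFD, Scd1 ran from -0.198 to 1.002, Scd2 from -0.565 to 0.777 and Elovl6 from -0.663 to 1.415, and for DIO-LFD against CON-LFD Elovl6 ran from -0.376 to 1.268. Among ratios, Scd1/Scd2 ran from -0.304 to 0.299 for DIO-LFD against DIO-HFD. Fads2/Fads1 ran from -0.121 to 0.369 for DIO-VSG against DIO-HFD, -0.39 to 0.349 for DIO-LFD against DIO-HFD, -0.268 to 0.471 for DIO-VSG against DIO-LFD and -0.691 to 0.048 for DIO-LFD against CON-LFD. Elovl6/Elovl5 ran from -0.728 to 1.301 for DIO-VSG against DIO-LFD, -0.014 to 1.535 for DIO-VSG against CON-LFD and -0.337 to 1.276 for DIO-LFD against CON-LFD. With 1 library left out, the permutation test cannot reach a P of 0.05.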
